A study of Mus musculus with 2 samples.

Results

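Metallothionein genes and genes of the zinc response were measured in pancreatic islets of control mice and of RbΔK7 knock-in mutants, which make a phosphorylation-resistant retinoblastoma protein (Rb). The members are 5 genes, Mt1, Mt2, Mt3, Mtf1 and Slc30a1, taken as the probes that carry these gene names on both scanned arrays: 8 of the 55681 gene probes on the array. They were chosen with their levels and their mutant over control ratios known, so those values are given here as a description with no test. Each of 2 two-colour Agilent arrays carried 1 control sample labelled with Cy3 (green) and 1 mutant sample labelled with Cy5 (red), which makes 2 control samples and 2 mutant samples, harvested independently. Islets were freed by collagenase digestion and picked by hand. Strain, age and sex, and whether animals were pooled, are not given in the sources used here, and the controls are described only as control. Both arrays lay on 1 slide. No dye was swapped, so for a single probe a genotype difference and a dye difference cannot be told apart.

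Metallothioneins are small cysteine-rich proteins that bind zinc, copper and cadmium. When free zinc rises in a cell, the zinc finger protein MTF1 binds metal response elements in DNA and switches on metallothionein genes and the zinc exporter gene Slc30a1. Pancreatic beta cells hold much zinc, which packs insulin into crystals in the secretory granule, and metallothionein genes also respond to glucocorticoids, oxidants and acute phase signals.

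Promoter sequences searched for the core that MTF1 is known to read are shown first. Whether this core has a part in the levels of any member was not tested. All 5 members had a promoter window in the RefSeq table of GRCm38.p6, which runs over 300 bases, from 250 bases before the transcript start to 50 bases from the start on. Each run below is the 250 bases before the start, 5′ to 3′ on the plus strand, and capitals mark matches to the core of the metal response element, searched as TGCACNC and TGCGCNC on both strands. They lie at chr8:94178839-94179088 for Mt1, chr8:94172368-94172617 for Mt2, chr1:191906531-191906780 for Slc30a1 and chr8:94152357-94152606 for Mt3.
Mt1: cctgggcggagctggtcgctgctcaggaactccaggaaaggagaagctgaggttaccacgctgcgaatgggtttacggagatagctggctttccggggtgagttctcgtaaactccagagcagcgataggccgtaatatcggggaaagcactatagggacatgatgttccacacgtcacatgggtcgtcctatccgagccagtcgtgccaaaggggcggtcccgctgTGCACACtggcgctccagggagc
Mt2: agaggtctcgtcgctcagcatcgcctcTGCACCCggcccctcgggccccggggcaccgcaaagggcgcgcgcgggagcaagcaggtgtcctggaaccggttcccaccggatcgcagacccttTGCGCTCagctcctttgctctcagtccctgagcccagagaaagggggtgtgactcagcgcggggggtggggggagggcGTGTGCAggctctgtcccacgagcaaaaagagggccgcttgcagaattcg
Slc30a1: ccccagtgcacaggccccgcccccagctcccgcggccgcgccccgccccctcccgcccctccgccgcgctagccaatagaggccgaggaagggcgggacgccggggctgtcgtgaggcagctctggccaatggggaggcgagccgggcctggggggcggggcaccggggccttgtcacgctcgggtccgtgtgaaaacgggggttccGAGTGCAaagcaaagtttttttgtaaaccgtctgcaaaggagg
Mt3: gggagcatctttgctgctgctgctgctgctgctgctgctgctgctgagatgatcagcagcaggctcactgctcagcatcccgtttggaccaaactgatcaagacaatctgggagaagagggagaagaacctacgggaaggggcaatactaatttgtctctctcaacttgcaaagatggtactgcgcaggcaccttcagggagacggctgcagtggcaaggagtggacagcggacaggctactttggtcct

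Over the whole window Mt2 held 4 matches, Mt1 3, Slc30a1 2, Mt3 1 and Mtf1 0. The match of Mt1 before the start, TGCACAC, spans the bases from 23 to 17 before it. Its other matches, TGCACTC and TGCGCTC, lie just after the start given by RefSeq. Whether transcripts in these samples begin at the RefSeq start was not analysed. In Mt2 the match nearest to the start among those before it, GTGTGCA on the plus strand, lies 50 to 44 bases before the start. The only match of Mt3, TGCACAC, lies after the start. Of 32851 promoter windows in the table, 25.7% held at least 1 match, 7.11% at least 2, 1.97% at least 3 and 0.517% at least 4. The core of the antioxidant response element, searched as TGACNNNGC on both strands, was found once in Mt2 (TGACTCAGC) and once in Slc30a1 (GCCTTGTCA on the plus strand), and at least 1 match was found in 12.4% of windows. A match is a description of the letters and does not show a site in use, and nothing follows from its absence in a window of this length.

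**Figure D1:**
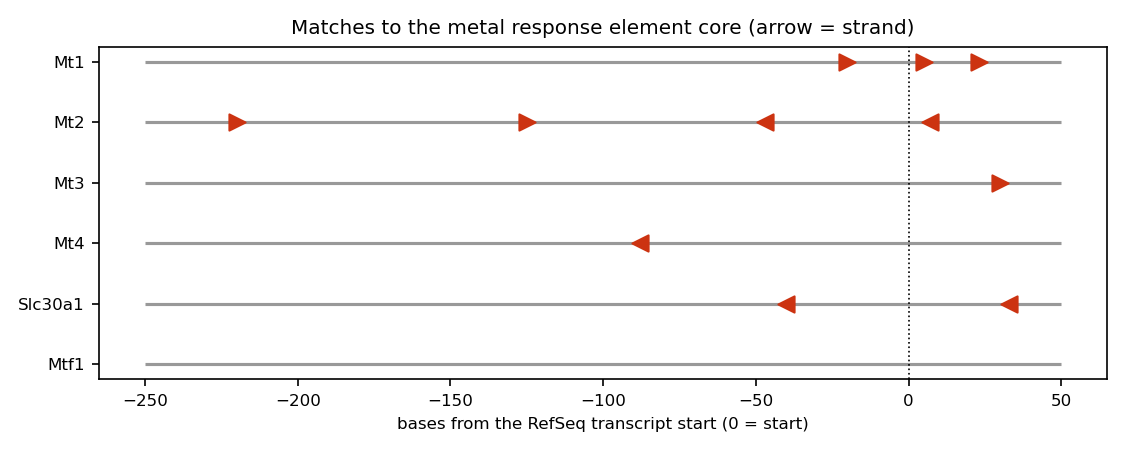
Matches to the metal response element core in the promoter windows of the 5 members and of Mt4. The x axis is the distance in bases from the RefSeq transcript start, each triangle is 1 match and points along its strand. Mt2 has 4 matches and Mt1 has 3, while Mtf1 has 0.

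Of the 8 member probes, 7 exceeded background clearly in the control or the mutant channel of each array and entered the comparison with the 22266 tested probes. The third probe of Mtf1 (A_52_P55666) was not well above background in any of the 4 channels and gives no ratio. Of all gene spots, 37.0% to 48.2% were well above background in a channel. No member spot had a saturated pixel. Each member probe was spotted once per array. Levels below are log2 values after normalization within and between arrays, and a ratio is the log2 difference of mutant over control on 1 array; neither sets the level of a probe against that of another probe.

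Mt1 and Mt2 are the widely expressed metallothionein genes. All 3 of their probes were lowest in the mutant sample of replicate 2, and the brighter Mt1 probe and Mt2 were at much the same level in the other 3 samples. The brighter probe of Mt1 (A_66_P111660, chromosome 8, 96704165 to 96704224, mm9) had log2 levels of 15.28 and 15.40 in the controls against 15.22 and 13.75 in the mutants of replicates 1 and 2. The 3 higher samples lay within 0.18 of each other, and the mutant sample of replicate 2 was 1.48 below the lowest of them. For replicate 1 the log2 ratio was -0.05 and for replicate 2 it was -1.66, a level 3.16-fold lower. The mean ratio of -0.86 ± 1.13 (SD, n = 2) was smaller than its spread.

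The probe of Mt2 (A_51_P246317, chromosome 8, 96697371 to 96697430, mm9) had log2 levels of 14.69 and 14.48 in the controls against 14.36 and 12.44 in the mutants of replicates 1 and 2. Its log2 ratios were -0.34 and -2.04, which are 1.26-fold and 4.12-fold lower levels, with a mean of -1.19 ± 1.21 (SD, n = 2). The pattern was that of the brighter Mt1 probe, with the mutant sample of replicate 2 lying 1.92 below the next sample. For both probes each mutant level was below both control levels, an arrangement that 15.6% of all tested probes also had, and for replicate 1 the gap was small.

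The dimmer probe of Mt1 (A_52_P423810, chromosome 8, 96703844 to 96703903, mm9), which the array assigns to an Ensembl transcript, gave another picture. Its log2 levels were 11.41 and 9.64 in the controls against 10.24 and 7.56 in the mutants of replicates 1 and 2. Its ratios were -1.17 and -2.08, so it was at least 2-fold lower on both arrays, with a mean of -1.62 ± 0.64 (SD, n = 2). Its control samples differed by 1.77 while those of the brighter probe differed by 0.13, and the mutant sample of replicate 1 lay above the control sample of replicate 2. Both probes of Mt1 had ratios below 0 on both arrays, but their sizes differed on the replicate 1 array (-1.17 and -0.05), where the brighter was above 0 with median centring or no offset. Which exon or intron each probe matches was not analysed here.

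**Figure D2:**
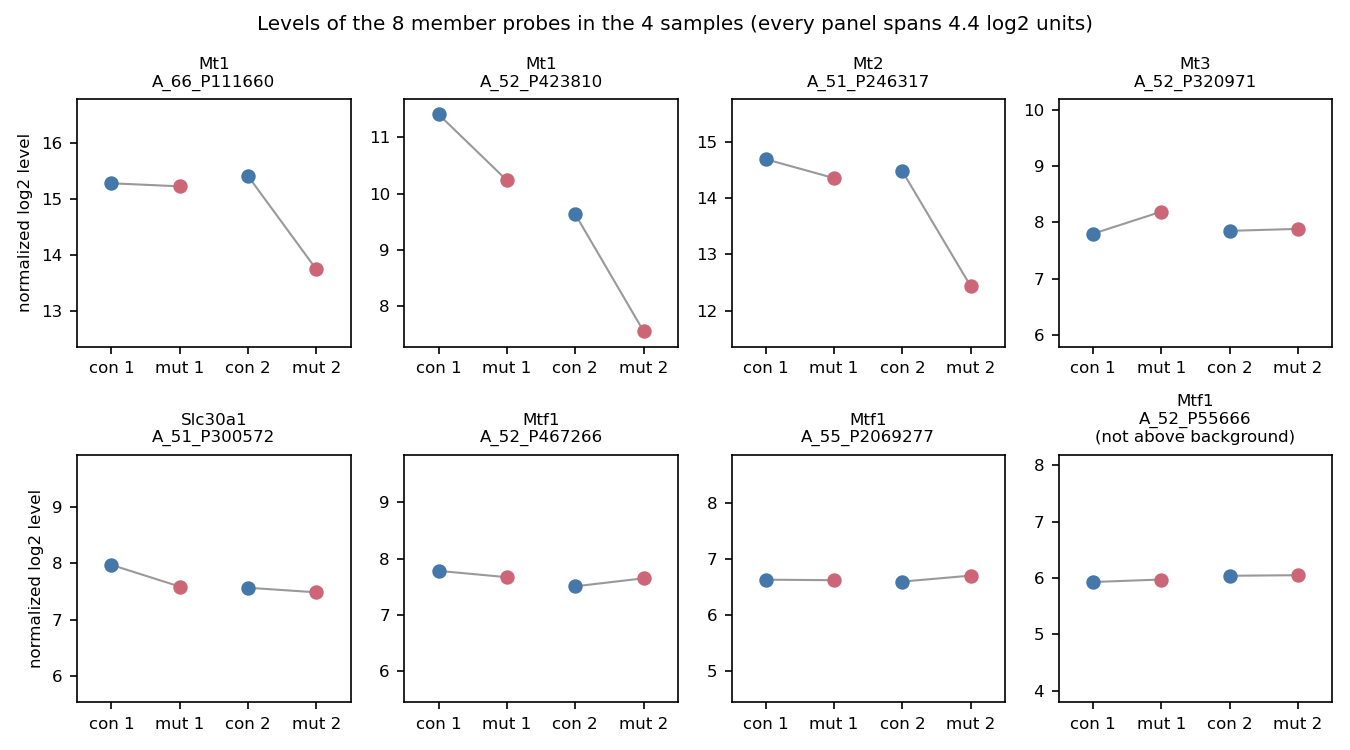
Log2 levels of the 8 member probes in the control (blue) and mutant (red) samples of replicates 1 and 2, with grey lines joining the samples of 1 array. Each panel has its own centre and spans the same number of log2 units. Mt1 and Mt2 are lowest in the mutant sample of replicate 2 (13.75, 7.56 and 12.44 for the 3 probes), and the other probes move little.

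Among the 7 tested member probes, 6 had a ratio below 0 on the replicate 1 array, as had 46.6% of all tested probes, and 4 on the replicate 2 array, as had 46.3%. A level lower by 2-fold or more was seen for 3 of the 7 on the replicate 2 array (1.48% of all tested probes) and for 1 on the replicate 1 array (0.198%). That 1 probe, the dimmer of Mt1, was lower by 2-fold or more on both arrays, as were 0.0449% of all tested probes. The mutant sample of replicate 2 was at least 2-fold below each of the other samples for the same 3 probes and for 0.943% of all tested probes. These shares describe the values by which the members were chosen and support nothing about them. The ratio of the brighter Mt1 probe ranked in the lowest 37.2% of tested ratios on the replicate 1 array and in the lowest 0.698% on the replicate 2 array. Mt2 ranked in the lowest 6.98% and 0.528%, and the dimmer Mt1 probe in the lowest 0.0651% and 0.510%. Slc30a1 ranked in the lowest 4.95% and 34.1%, below Mt2 on the replicate 1 array. Mt3 ranked at 92.2% and 51.7% from the lowest, and the Mtf1 probes at 28.2% and 67.2% (brighter) and at 45.0% and 62.1%.

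**Figure D3:**
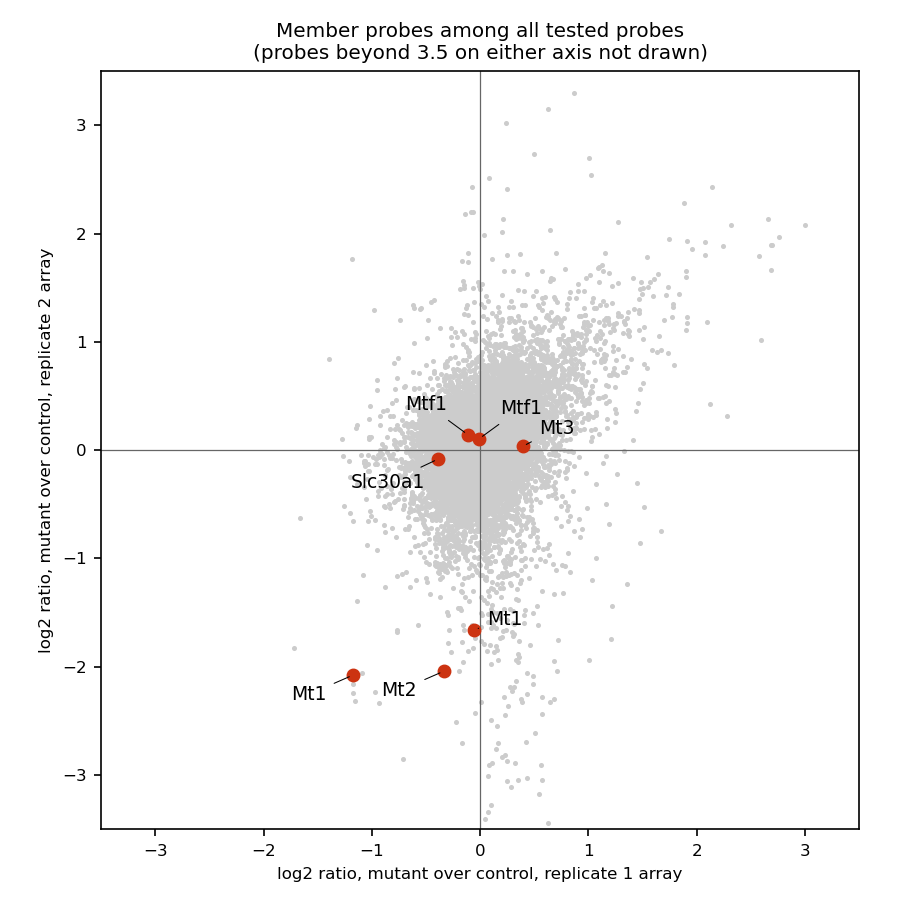
Log2 ratios of mutant over control on the replicate 1 array (x axis) and the replicate 2 array (y axis). Grey points are all tested probes within the axes and red points are the 7 tested member probes. The probes of Mt1 and Mt2 lie at -1.66, -2.04 and -2.08 on the y axis, while Mt3, Mtf1 and Slc30a1 lie near 0.

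On the replicate 1 array the sign of the brighter Mt1 probe and of Mt2 depended on how the array was centred. With median centring in place of loess, which fits a curve over brightness, the brighter Mt1 probe had ratios of 0.42 and -1.34 and Mt2 had 0.09 and -1.73, so that both were higher in the mutant on the replicate 1 array. The mean of the brighter Mt1 probe was then -0.46. With no background offset the Mt1 ratio on the replicate 1 array was 0.03. The dimmer Mt1 probe remained below 0 on both arrays in each of these settings, with means from -1.42 to -1.89. In the authors' processed signals the ratios were -0.22 and -1.59 for the brighter Mt1 probe and -0.40 and -1.92 for Mt2. Without the replicate 2 array the brighter Mt1 probe is left at -0.05 and Mt2 at -0.34, so their means rest on that array.

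Markers of acinar cells were also lowest in the mutant sample of replicate 2. All 8 markers of these enzyme-making cells around the islets were tested, were well above background in all 4 channels, and had summed log2 levels of 19.50 and 20.90 in the controls against 20.01 and 16.48 in the mutants of replicates 1 and 2. Their median ratios were 0.52 and -5.19, and 0 of 8 passed limma's test (0 at an unadjusted p under 0.05). Between the control samples the acinar sum was higher in replicate 2 (20.90 against 19.50). There the brighter Mt1 probe differed from replicate 1 by 0.13, the dimmer by -1.77 and Mt2 by -0.21. Whether these markers have a part in the levels of Mt1 and Mt2 was not tested. In bulk RNA, fewer cells of a type and less RNA per cell cannot be told apart.

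The 9 beta cell markers, insulin genes among them, were all well above background in the 4 channels. So were all 8 acinar markers, so the flags alone do not set islet RNA apart from acinar RNA. Summed log2 levels of the beta cell markers were 18.98 and 18.43 in the controls against 18.68 and 19.39 in the mutants. The acinar sums (above) were larger except in the mutant sample of replicate 2, though sums over different probes are not strictly comparable. No beta cell marker passed limma's test (0 at an unadjusted p under 0.05). Stromal markers had sums of 10.71 and 12.82 in the controls and 13.35 and 14.77 in the mutants. By limma's test 5 of 7 rose (7 at an unadjusted p under 0.05), where 75 of all 17104 tested genes were called higher. Duct markers had sums of 10.83 and 11.15 in the controls and 11.69 and 12.13 in the mutants. Of 6 duct genes 2 rose (4 at an unadjusted p under 0.05). Ratios were above 0 on both arrays for 4 of the 6, and for 5656 of all 17104 tested genes. Krt7 had ratios of -0.17 and 0.03 and Muc1 0.27 and -0.04. Of the other marker sets tested, 1 of 5 endothelial genes, Vwf, rose (5 at an unadjusted p under 0.05). Its other probe had a mean of 0.24 (limma adjusted p = 0.584). Kdr was below 0 on both arrays (-0.28 and -0.88) and the other 4 above. Endothelial sums were 12.83 and 12.71 in the controls against 12.74 and 12.53 in the mutants. In the remaining sets, 0 of 5 alpha cell, 2 delta cell, 4 leukocyte, 4 Schwann cell and 2 erythroid genes passed (1, 2, 2, 3 and 1 at an unadjusted p under 0.05). Of all 17104 tested genes, 2168 had an unadjusted p under 0.05. The stromal, duct and endothelial calls were all lost with the authors' processed signals, the series matrix values, an offset of 0 or separate channels, where 0 probes were called higher. The part of these cells' markers in the levels of the members was not tested. Ptprc, the common leukocyte antigen gene, did not enter the test because its probes were too dim.

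**Figure D4:**
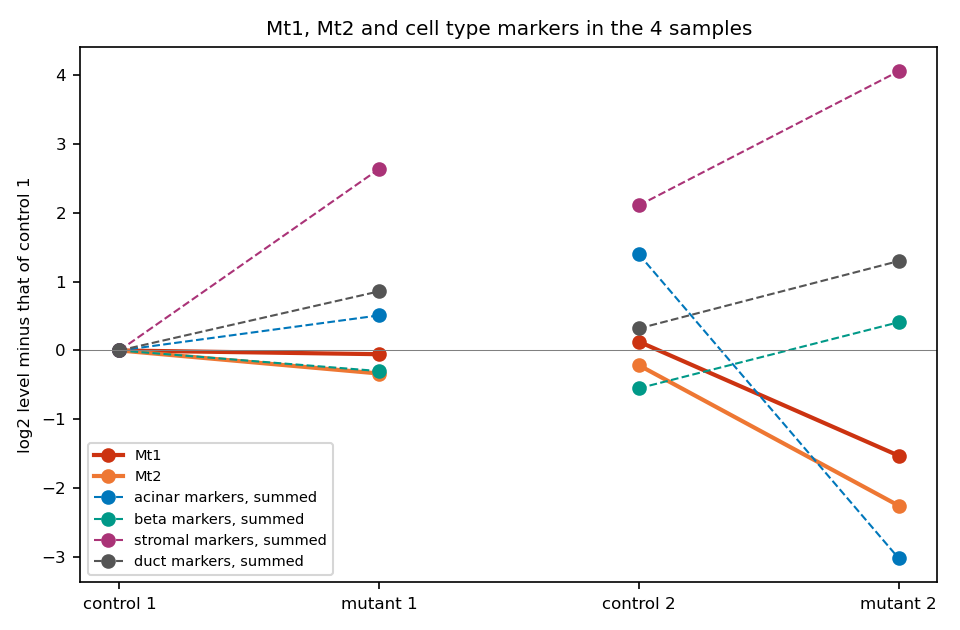
Log2 levels of the brighter Mt1 probe, of Mt2 and of summed acinar, beta cell, stromal and duct markers in the 4 samples, each as a difference from the control sample of replicate 1, with lines joining the samples of 1 array. Mt1, Mt2 and the acinar sum (16.48) are lowest in the mutant sample of replicate 2, while in the control sample of replicate 2 the acinar sum is high (20.90) and Mt1 and Mt2 are near 0.

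Mt3, the metallothionein gene best known from brain, had log2 levels of 7.80 and 7.85 in the controls against 8.19 and 7.89 in the mutants (A_52_P320971, chromosome 8, 96677927 to 96677986, mm9). The mutant samples were above both control samples, as for 22.1% of all tested probes, but on replicate 2 by 0.04. Its ratios were 0.39 and 0.04, with a mean of 0.21 ± 0.25 (SD, n = 2), and in the authors' processed signals the second was -0.03. Mt4, which is no member and is known from squamous epithelia, was not well above background in any channel. The probes of Mt1, Mt2, Mt3 and Mt4 lie within 42.1 kb of chromosome 8 on mm9, and their ratios did not go together: Mt3 was above 0 and Mt2 below 0 on both arrays. The contrast in sign was lost on the replicate 1 array with median centring (Mt3 0.43, Mt2 0.09). It was also lost on the replicate 2 array with the authors' processed signals or no offset. There Mt3 was just below 0 (-0.03 and -0.01), and Mt2 remained far lower (-1.92 and -2.06).

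Mtf1, the metal sensor itself, showed no direction. Its brighter probe (A_52_P467266, chromosome 4, 124526365 to 124526424, mm9) had log2 levels of 7.78 and 7.51 in the controls against 7.67 and 7.65 in the mutants. The ratios were -0.11 and 0.14, with a mean of 0.02 ± 0.18 (SD, n = 2), and the groups overlapped. Its second tested probe (A_55_P2069277, chromosome 4, 124522092 to 124522151, mm9) had levels of 6.63 and 6.60 in the controls and 6.62 and 6.70 in the mutants. Its mean ratio was 0.05 ± 0.08 (SD, n = 2). With median centring it was -0.34 and in the authors' processed signals 0.18. The third lies on chromosome 4 from 124524812 to 124524871.

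Slc30a1 encodes ZnT1, which carries zinc out of the cell across the plasma membrane and is an MTF1 target like Mt1 and Mt2. Its probe (A_51_P300572, chromosome 1, 193736760 to 193736819, mm9) had log2 levels of 7.98 and 7.57 in the controls against 7.59 and 7.49 in the mutants. The control sample of replicate 1 stood apart from the other 3 samples, and the groups overlapped. The ratios were -0.39 and -0.08, with a mean of -0.23 ± 0.22 (SD, n = 2). In the authors' processed signals, to which no offset was added, they were -0.71 and -0.20, with a mean of -0.45. Its larger difference was thus on the replicate 1 array, where that of Mt1 and Mt2 was on the replicate 2 array.

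The likeness of patterns was measured as the root mean square difference of the 4 sample levels, each probe centred on its own mean. It was 0.26 log2 units between the brighter Mt1 probe and Mt2, 0.68 between Mt1 and Mt3, 0.69 between Mt1 and Mtf1 and 0.61 between Mt1 and Slc30a1. Slc30a1 and Mtf1 differed by 0.14. The genes nearest to the Mt1 probe among all tested probes were Vtn (0.06), Psmb10 (0.07) and Spdef (0.07), and those nearest to Mt2 were Arhgdig (0.07), P2rx1 (0.11) and Pip5k1a (0.15). Each of these 6 had ratios between -0.30 and 0.10 on the replicate 1 array and between -1.95 and -1.59 on the replicate 2 array. Mt3 was nearest to Tert, Zfp119b and Tmem35b, Slc30a1 to Map4k2, Cox7a2l and Gpr158, and Mtf1 to Dcxr, Pdcd4 and Large2, all within 0.02. With 4 samples and 22266 probes, close neighbours are easy to find and say nothing of shared control.

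Of 32 other zinc and copper genes tested, 1 rose and 0 fell by limma's test on the within-array ratios (Benjamini-Hochberg adjusted p under 0.05 over all probes; 3 genes at an unadjusted p under 0.05). Over all 22266 tested probes 0.368% were called higher and 0.0135% lower. The unadjusted p was under 0.05 for 2527 of these probes and for 2168 of the 17104 tested genes. The medians of these 32 genes were 0.14 and 0.01 on the arrays, against 0.02 and 0.03 over all 17104 tested genes. A gene with several probes was represented by the brightest.

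Zinc exporters of the Slc30 family lay close to 0. Of 9 on the array 6 were tested, 0 passed (0 at an unadjusted p under 0.05), and the medians were 0.05 and -0.01. Slc30a8, which loads zinc into insulin granules, had log2 levels of 13.86 and 13.38 in the controls against 13.27 and 13.43 in the mutants, with ratios of -0.59 and 0.05. The groups overlapped. Slc30a4 had ratios of 0.06 and -0.20, Slc30a7 of 0.23 and -0.03 and Slc30a9 of 0.05 and 0.00.

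Zinc importers of the Slc39 family went different ways. Of 14 on the array 12 were tested and 0 passed (1 at an unadjusted p under 0.05), with 5 above and 3 below 0 on both arrays, where 32.3% and 25.3% of all tested probes lay, and medians of 0.23 and -0.04. Slc39a4, the importer that takes up dietary zinc, had log2 levels of 7.16 and 7.97 in the controls against 7.76 and 8.67 in the mutants. Its ratios were 0.59 and 0.70 (limma adjusted p = 0.154), and the mutant sample of replicate 1 lay below the control sample of replicate 2. Slc39a10, an importer gene that MTF1 represses, had ratios of 0.30 and 0.22, and its control channel was dim, not above background by the scanner's flag. Slc39a5, an importer known from pancreas, had levels of 7.59 and 7.42 in the controls against 7.80 and 5.75 in the mutants. Its ratios were 0.21 and -1.67, and its signal did not exceed background in the mutant sample of replicate 2. Slc39a8, which also carries manganese, had levels of 6.68 and 7.64 in the controls against 7.05 and 6.44 in the mutants and ratios of 0.38 and -1.20. Both genes were lowest in the mutant sample of replicate 2, Slc39a8 by a small margin.

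Of 5 other genes reported to depend on MTF1, 0 passed (1 at an unadjusted p under 0.05), with medians of 0.31 and 0.23. Csrp1, which encodes a LIM domain protein, had levels of 11.37 and 11.77 in the controls against 12.14 and 12.67 in the mutants. Its ratios of 0.77 and 0.90 did not pass (limma adjusted p = 0.0893), although its mutant samples were above both controls. Selenoh had ratios of 0.31 and 0.27. Gclc, for a subunit of the glutathione-making ligase, had 0.38 and -0.26, and the growth factor gene Pgf 0.24 and -0.20.

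Among 9 tested copper genes, Cp, which encodes the copper-carrying ferroxidase ceruloplasmin, rose and 8 did not pass. Its brighter probe (A_55_P2111302, chromosome 3, 19889071 to 19889130, mm9) had log2 levels of 7.45 and 8.54 in the controls against 9.16 and 9.98 in the mutants, which do not overlap. Its ratios were 1.72 and 1.44, averaging 1.58 ± 0.20 (SD, n = 2), which is 2.98-fold higher (adjusted p = 0.0296 by limma). Its other probe, whose control channel was dim on both arrays, had a mean of 0.05 (limma adjusted p = 0.939), from -0.40 with median centring to 1.09 with the authors' processed signals. Averaged over both probes Cp did not pass (mean 0.81, limma adjusted p = 0.124). With the authors' processed signals its brighter probe had a mean of 1.98 and did not pass (limma adjusted p = 0.254). Over all settings run on that probe the limma adjusted p lay between 0.000165 and 0.723. Stromal and duct sums were also higher in both mutant samples (above), though only 4 of 6 duct genes were above 0 on both arrays. The part of these markers in the rise of Cp was not tested. The copper importer gene Slc31a1 had ratios of 0.60 and -0.09, the copper pump gene Atp7a -0.49 and 0.24, and Commd1 -0.14 and 0.01.

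**Figure D5:**
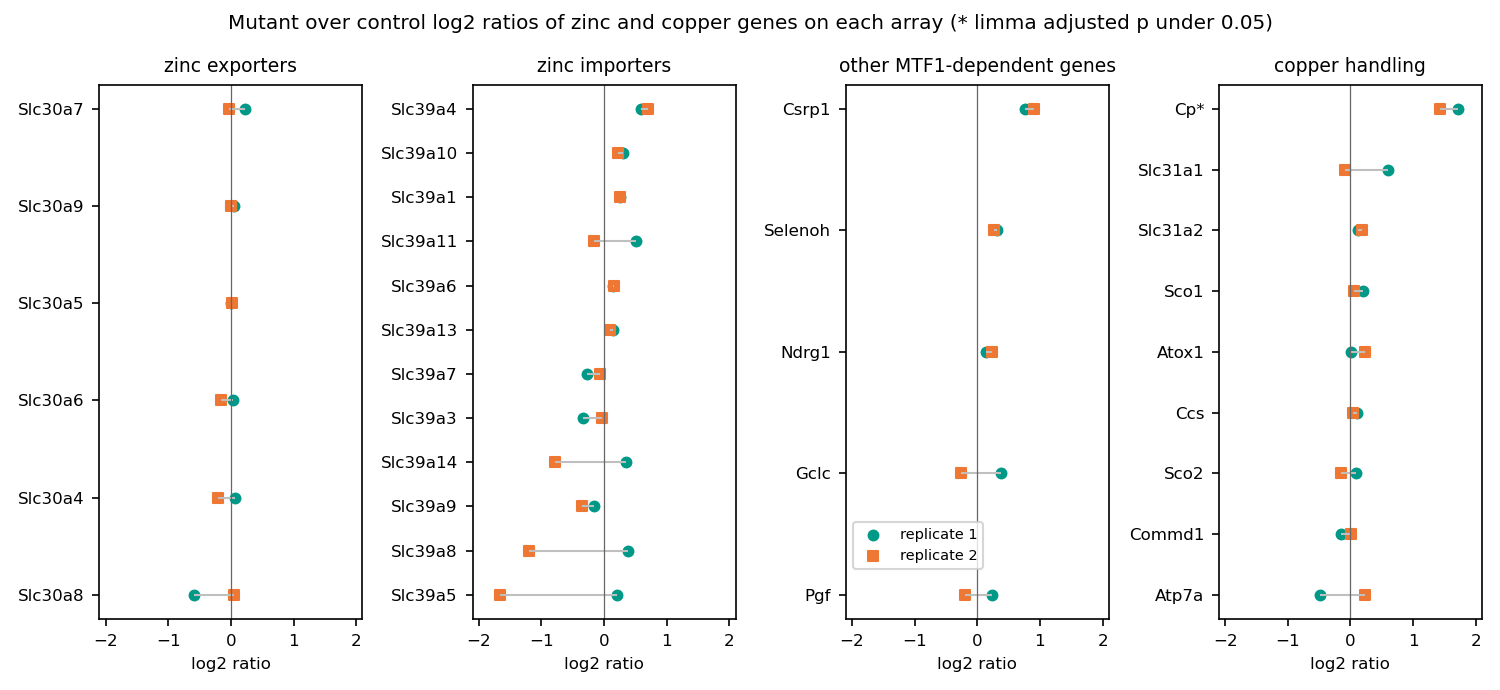
Log2 ratios of mutant over control for the tested genes of 4 lists, with replicate 1 as circles and replicate 2 as squares. The star marks Cp (1.72 and 1.44), the 1 gene past limma's test. Slc39a5 and Slc39a8 have the lowest ratios of these genes on the replicate 2 array (-1.67 and -1.20).

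Among genes of other signals that act on metallothionein genes, none passed. For the counts below, 2168 of all 17104 tested genes had an unadjusted p under 0.05. Of 10 glucocorticoid-responsive genes 0 passed limma's test (1 at an unadjusted p under 0.05), with medians of 0.26 and -0.31. Tsc22d3, which encodes the glucocorticoid-induced leucine zipper, had ratios of 1.06 and 0.65 and Sgk1 1.14 and -0.12. Fkbp5, a co-chaperone of the glucocorticoid receptor, had 0.05 and -1.08, and Klf9 -0.01 and -0.99. Of 8 tested targets of the oxidant sensor NRF2, 0 passed (2 at an unadjusted p under 0.05), with medians of 0.05 and 0.21. The quinone reductase gene Nqo1 had ratios of 0.48 and 0.49, Txnrd1 0.26 and 0.48, Blvrb -0.05 and 0.05 and G6pdx -0.22 and 0.07. Of 6 tested acute phase and STAT3 genes 0 passed (4 at an unadjusted p under 0.05), with medians of -0.02 and -0.08. The cytokine receptor gene Osmr had ratios of 0.84 and 0.57 and Lcn2 0.37 and 0.38, while the feedback inhibitor gene Socs3 had -1.17 and -0.65 and Junb -0.27 and -0.49.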

How the data were processed

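RNA of 2 control and 2 mutant islet samples was hybridised to 2 arrays. The submitters' processing notes name Agilent Feature Extraction 10.7.3.1 as the software, and the headers name mm9 as the build of the probe positions. The deposited intensity values are mean spot signals with the median local background, and processed signals that were background-subtracted and dye-normalized, per the file headers. The deposited log10 ratios are of red over green processed signals, per the file headers, and the value table of the series repeats them (largest difference 0 on both arrays). The flags for spots well above background are the scanner software's.

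Background correction (normexp, offset 50) used limma 3.58.1 (R 4.3.3), and signals were normalized by loess within arrays (span 0.3) and, for levels, Aquantile between them. The offset draws ratios of dim probes towards 0. Control spots and 4 outlier gene spots per array were left out, and repeated spots were averaged per probe. Tests covered probes clearly above background in at least 1 channel of each array. A gene with several probes was represented by the brightest. Ratios were tested against 0 with lmFit and eBayes, two-sided, which leaves 1 residual degree of freedom per probe beside 4.9 from the prior, and the step was tested on simulated data. The small number of arrays limits precision. No gene spot was saturated. Genes were named through the RefSeq table of GRCm38.p6 (26762 probes by accession, 3819 by symbol, 634 by synonym, 24466 with the name in the files), and members by the files' own gene names.

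Members, gene lists, marker lists and tests were chosen with earlier results of these data known. Named are all member probes, Mt4, list genes that passed, the 2 highest and 2 lowest tested genes of each pathway list, and the 3 nearest patterns. Alternatives were other background, centring, filter, prior and probe choices, and separate channels.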

Additional observations from a re-analysis of the deposited data

How the results depend on the processing

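Over all tested probes limma called 82 higher and 3 lower (2527 at an unadjusted p under 0.05). These counts were 0 and 0 with Agilent's processed signals, the series matrix values, an offset of 0 and the separate channels with no replicate block (2351, 2355, 2469 and 1505 probes at an unadjusted p under 0.05). They were 585 and 197 with median centring, 324 and 32 with no filter on dim probes and 517 and 49 with a trended and robust prior. The 1 zinc or copper gene called higher became 0 with the processed signals, the series matrix values, an offset of 0, the separate channels with no replicate block and the mean of all probes of a gene. It became 2 with median centring, 2 with no filter and 3 with the trended prior, and the cause of these differences was not tested. Before centring, the median log2 ratios of the tested probes were 0.65 and 1.24. For the members, the mean ratio of Slc30a1 was -0.45 with the processed signals and with the series matrix values, against -0.23. The means of the brightest probes of Mt1, Mt2, Mt3 and Mtf1 moved by less than the SD between arrays in each setting that kept both arrays. That is a wide margin with 2 arrays. Leaving out an array always moves a mean of 2 by less than their SD, so those settings are not counted here. The second tested Mtf1 probe moved from 0.05 ± 0.08 (SD, n = 2) to -0.34 with median centring. It moved to 0.18 with the processed signals and with the series matrix values. Left with a single array, a probe has no residual degree of freedom, so no test was run there. The ranges then were -1.66 to -0.05 for Mt1, -2.04 to -0.34 for Mt2, 0.04 to 0.39 for Mt3, -0.08 to -0.39 for Slc30a1 and -0.11 to 0.14 for Mtf1.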
